A study of Mus musculus with 37 samples.

Results

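Left ventricular RNA of mice that received adrenaline without a cardiac arrest (Adr) was compared at 1 day with that of Naïve mice. The comparison rests on 9 of the 37 libraries of the series, chosen by their treatment labels, with 4 libraries in Adr (labelled sham at 1 d) and 5 in Naïve (labelled as having no intervention). Of the 56748 genes listed, 13374 were tested, those with at least 0.5 FPKM (fragments per kilobase of gene, scaled by the depth of the library) in at least 4 of the 9 libraries. Of these, 22 reached that level only in Adr libraries and 18 only in Naïve libraries, so these had to differ between the groups. Both groups were young adult C57BL/6J mice of both sexes under isoflurane. Adr mice were also intubated and ventilated and had saline and then adrenaline injected through the chest wall into the left ventricle, guided by ultrasound, and the apex, where the needle entered, was discarded. Naïve mice were neither intubated nor injected. Adrenaline, injection, ventilation and the day that followed can therefore not be told apart in this comparison. Arrest mice, which were resuscitated with adrenaline after asystole, and Adr mice at 7 days, with 4 libraries each, are used below where stated. No source ties a library to more than its own mouse, and p-values measure the spread between these libraries.

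Adr libraries held 13.6 to 25.9 M fragments counted on genes (M, 1e6) and Naïve libraries 13.4 to 15.7 M. Adr replicate 4 was the deepest and listed 21356 genes above 0, against 16297 to 16925 in 4 Naïve libraries and 13475 in Naïve replicate 4. By Xist and Ddx3y, Adr held 2 female and 2 male hearts and Naïve 3 and 2. The numbers in the sample descriptions, whose meaning is not stated, ran from 71 to 102 in Adr and from 116 to 127 in Naïve, so an order of handling and the group cannot be told apart. Ventricular markers were high in every library, as in Myl2, the ventricular regulatory light chain, at 3586.2 ± 454 FPKM in Adr and 3081.6 ± 420 in Naïve (mean ± SD, here and below). The 8 lung epithelial markers summed to 0 to 3.3 FPKM in Adr and 0 to 3.25 in Naïve, and none passed the filter.

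Atrial markers set single Adr libraries apart. Sln, sarcolipin, a calcium pump regulator of atrial muscle, was listed at 0 in Adr replicate 1, at 121 FPKM in replicate 2, at 20.4 in replicate 3 and at 1.12 in replicate 4, and at 0 in all 5 Naïve libraries. Myl7, the atrial regulatory light chain, was at 0.461, 445, 89.6 and 14.1 FPKM in the Adr libraries and between 2.58 and 6.17 in Naïve. Replicates 2 and 3 thus stood far above every Naïve library, replicate 4 stood moderately above, and replicate 1 below. Myl4, the atrial essential light chain, showed the same order, at 0.147, 48.3, 14.6 and 6.64 FPKM against at most 0.753 in Naïve. Nppa, atrial natriuretic peptide, was at 29.4, 78.9, 33.1 and 27.5 FPKM in Adr and 10.2 to 29.1 in Naïve. The 12 listed atrial markers summed to 63.3, 757, 222 and 87.2 FPKM in Adr and to 54.2 to 77.8 in Naïve. Bmp10 was at 0 in all 9 libraries. None of the 9 markers tested passed the threshold, and the difference of Myl7 was 2.73 on the log2 scale with a 95% interval of -0.03 to 5.5.

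**Figure D1:**
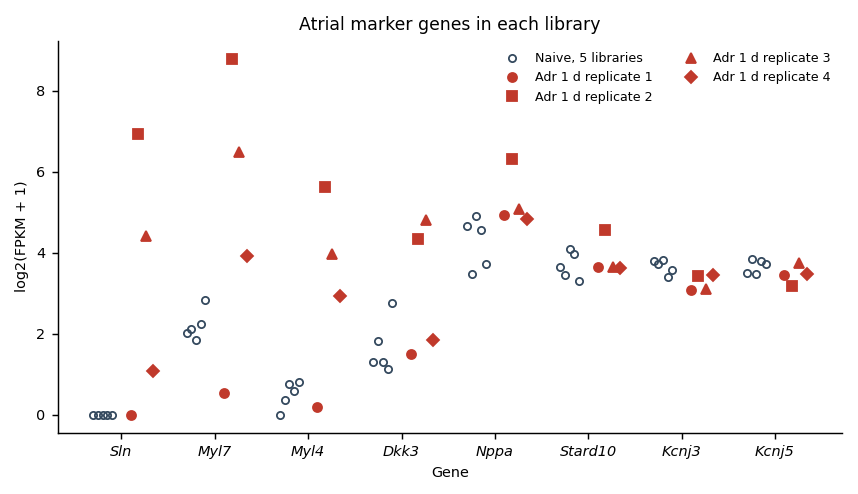
Level of 8 atrial marker genes on the log2(FPKM + 1) scale, with open circles for the 5 Naïve libraries and a filled red symbol for each of the 4 Adr libraries at 1 day. Sln, Myl7 and Myl4 stand highest in Adr replicate 2 (121, 445 and 48.3 FPKM) and next in replicate 3, while for these 3 genes Adr replicate 1 lies among or below the Naïve libraries.

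Adrenaline acts on the heart through adrenergic receptors, whose main cardiac arm raises cAMP and, through protein kinase A, the calcium cycle that drives each beat. Calcium leaves the sarcoplasmic reticulum through the ryanodine receptor Ryr2 and is pumped back by Atp2a2, which phospholamban restrains. The same signalling induces immediate early genes within minutes to hours, shifts the use of fatty acids and glucose, and, with circulating stress hormones, induces metallothioneins and acute phase proteins. Of the genes that passed the threshold, 2 have promoters with well known response elements and are shown for that reason. Each is the 250 bases before the RefSeq start in GRCm38.p6, on the plus strand, with matches in capitals.

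Mt1 (metallothionein 1), chr8:94178839-94179088: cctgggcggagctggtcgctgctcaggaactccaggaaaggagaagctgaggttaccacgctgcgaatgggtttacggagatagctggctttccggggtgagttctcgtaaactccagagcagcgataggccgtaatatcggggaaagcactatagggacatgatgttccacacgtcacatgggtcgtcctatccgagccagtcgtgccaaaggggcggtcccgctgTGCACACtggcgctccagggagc
Nr4a3 (orphan nuclear receptor), chr4:48045055-48045304: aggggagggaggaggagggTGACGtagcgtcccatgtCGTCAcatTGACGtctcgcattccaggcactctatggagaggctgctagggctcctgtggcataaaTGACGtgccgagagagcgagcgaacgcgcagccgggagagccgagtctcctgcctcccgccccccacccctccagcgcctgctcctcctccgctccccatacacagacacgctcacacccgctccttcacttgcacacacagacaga

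In the Mt1 promoter the capitals mark TGCNCNC, the core of the metal response element, which was searched on both strands and matched once, from 23 to 17 bases before the start. This core is common and was found in 44.4% of 32851 promoters of the same length. In the Nr4a3 promoter they mark TGACG, the core of the cAMP response element, with 4 matches, of which 1 lies on the minus strand. TGACG occurred in 17.8% of promoters, and 0.14% held at least 4 matches. Of the genes that passed the threshold and had a promoter in the RefSeq table, TGCNCNC was found in 3 of 7 higher and 5 of 13 lower genes and TGACG in 3 of 7 and 3 of 13. These matches describe sequence and do not show that a factor was bound.

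At 1 day, 30 genes differed between Adr and Naïve (limma on log2(FPKM + 1), Benjamini-Hochberg adjusted p of at most 0.05). Of these, 16, or 0.12% of the genes tested, were higher in Adr and 14, or 0.105%, were lower. All 30 separated the groups without overlap, as did 381 (2.85%) of all tested genes in the higher and 452 (3.38%) in the lower direction. A difference above 0 was found in 7255 of the 13374 genes. Counts of list members below are to be read against these shares. The lowest adjusted p was 0.0011 and 26 of the 30 had at least 0.04, so most calls lay close to the threshold. The unadjusted p reached 0.05 for 1930 genes and an adjusted p of at most 0.1 for 82 higher and 91 lower genes. The number of calls was unstable, at 1 to 11 with any 1 library left out and 0 to 496 under the other settings tried. None of the 30 genes changed direction, but without overlap between the groups leaving out a library could not reverse them. It was 50 (42 higher, 8 lower) with equal sums of FPKM, 57 (47 and 10) when scaled by fragments and 62 (21 and 41) with quantile normalization, so the balance of directions depended on the scaling. Levels and intervals are given below for that reason. Differences are Adr minus Naïve on the log2(FPKM + 1) scale, which understates changes of genes at low levels. In these bulk samples fewer cells of a type and less RNA per cell cannot be told apart.

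**Figure D2:**
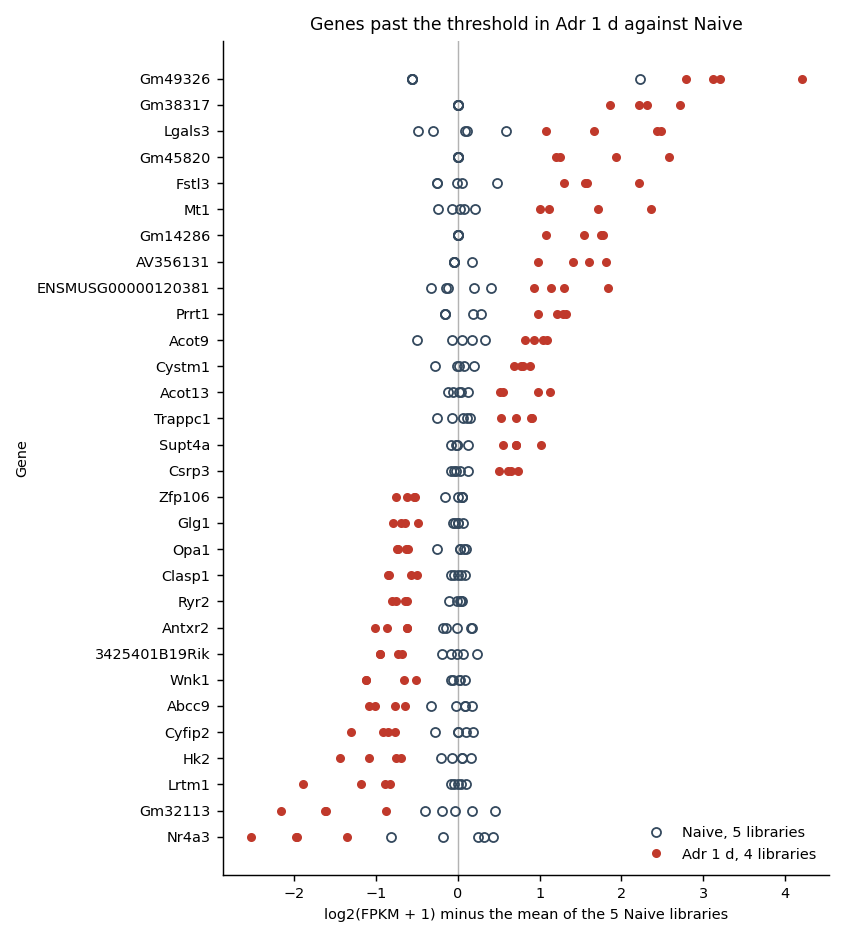
The 30 genes past the threshold, 1 per row. Each point is a library at its log2(FPKM + 1) minus the mean of the 5 Naïve libraries, open for Naïve and filled for Adr at 1 day. In every row the 4 Adr libraries lie on one side of all 5 Naïve libraries, and the differences run from 3.33 (Gm49326) to -1.96 (Nr4a3).

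Nr4a3, a nuclear receptor of the immediate early class that cAMP induces, had the largest fall of the called genes. It was at 1.23, 2.42, 1.21 and 0.512 FPKM in the Adr libraries and at 9.37, 10.8, 9.89, 3.94 and 6.69 in Naïve. The highest Adr library was thus below the lowest Naïve library, and the ratio of means was 0.165. The difference was -1.96 ± 0.29 (SE, 95% interval -2.6 to -1.32, adjusted p = 0.042), and -2.16 to -1.77 with 1 library left out. It was the only gene past the threshold among 17 immediate early genes, whose median difference was -0.05 (0.03 when scaled by fragments), against 0.03 over all tested genes. This median rested on single libraries, at -0.52 without Adr replicate 1 and 0.3 without Adr replicate 4, and was 0.35 with the atrial marker level as a covariate. Fos was at 20.5 FPKM in Adr replicate 1 but at 1.01 to 3.54 in the other Adr libraries, against 2.28 to 7.62 in Naïve. Fosb was at 0.0795 to 0.828 FPKM in Adr and 0.609 to 5.92 in Naïve (-1.17, interval -2.07 to -0.28, adjusted p = 0.22). Jun was at 12.9 to 32.8 and 13.8 to 21.6. These 3 overlapped between the groups.

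Ryr2, the calcium release channel, fell with little spread. It was at 24.6, 27.2, 23.9 and 26.7 FPKM in Adr and at 42.2, 43.8, 43, 39.3 and 43.5 in Naïve. Both groups were narrow, 25.6 ± 1.6 and 42.4 ± 1.8, and the gap between them was several times either spread. The difference was -0.71 ± 0.09 (interval -0.91 to -0.5, adjusted p = 0.038), a ratio of 0.604. Of 14 calcium handling genes tested, 1 was called lower, none was called higher, 3 lay lower and 1 higher without overlap, and the median was -0.37. Over all tested genes 3.38% lay lower and 2.85% higher without overlap. Atp2a2, the SERCA pump, was at 886 to 1152 FPKM in Adr and 1298.1 to 1668 in Naïve, without overlap (-0.55, interval -0.81 to -0.29), and did not pass the threshold (adjusted p = 0.089). Pln, phospholamban, was at 606 ± 88.8 and 606 ± 76.5 (interval of the difference -0.29 to 0.29). Chosen after their values were seen, Hrc, a calcium binding protein of the reticulum, was at 105 to 145 FPKM against 155 to 221 (adjusted p = 0.094), and Fkbp1b, the small protein that binds Ryr2, was at 1.08 to 2.73 against 0 to 0.626 (adjusted p = 0.064).

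Abcc9, the sulfonylurea receptor subunit of ATP sensitive potassium channels in heart muscle and pericytes, fell from 33.4 ± 4.35 to 17.7 ± 2.68 FPKM. Its values were 20.9, 15.9, 15.1 and 19 in Adr and 37.6, 35.3, 32.5, 26.3 and 35.2 in Naïve (-0.88 ± 0.14, interval -1.18 to -0.58, adjusted p = 0.042). Kcnj8, the pore that can pair with it, was at 21.4 ± 4.3 and 17.4 ± 5.06, and the pericyte genes Pdgfrb and Rgs5 overlapped between the groups, and Abcc9 was the only call among 9 pericyte genes. Wnk1, a kinase that controls ion cotransport, fell from 21.6 ± 1.1 to 11.7 ± 2.77 FPKM (-0.85, interval -1.18 to -0.53, adjusted p = 0.049). None of 19 ion channel and gap junction genes was called, and 2 had a difference above 0 (median -0.32), as did 7255 of all 13374 tested. Without overlap 3 lay lower, against 3.38% of all tested genes. Those 3 included, named after their values were seen, Kcnip2 (adjusted p = 0.098), an auxiliary subunit of transient outward channels, and Gja1 (adjusted p = 0.095), connexin 43. None of 21 adrenergic receptor and cAMP genes was called (median -0.2, 2 lower and 0 higher without overlap). The receptor Adrb1 was at 4.34 ± 3.14 FPKM in Adr and at 4.78 ± 1.08 in Naïve. Adra1a was at 1.02 ± 0.38 and 1.76 ± 0.393 (-0.45, interval -0.85 to -0.06, adjusted p = 0.27).

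Csrp3, the muscle LIM protein of the Z-disc, rose with little spread. It was at 593, 642, 660 and 701 FPKM in Adr and at 412, 394, 427, 407 and 457 in Naïve. Every Adr library was above every Naïve library, by a ratio of means of 1.55 (0.63 ± 0.09, interval 0.43 to 0.83, adjusted p = 0.042). It was the only call among 15 sarcomere and Z-disc genes (median -0.15, 1 higher and 2 lower without overlap). Mybpc3, myosin binding protein C, was at 377 ± 47.5 against 462 ± 13.8 (adjusted p = 0.22), and Ttn, titin, at 17.9 ± 5.93 against 27.8 ± 3.96 (adjusted p = 0.17). No wall stress or fetal gene was called among 11 tested (median 0.06). Nppb, B-type natriuretic peptide, was at 901, 809, 247 and 430 FPKM in Adr and 192 to 534 in Naïve, so only 2 Adr libraries exceeded the Naïve range. Myh7, the slow myosin heavy chain, was at 14.7 ± 4.13 against 8.02 ± 1.53 (0.77, interval 0.32 to 1.23, adjusted p = 0.14).

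**Figure D3:**
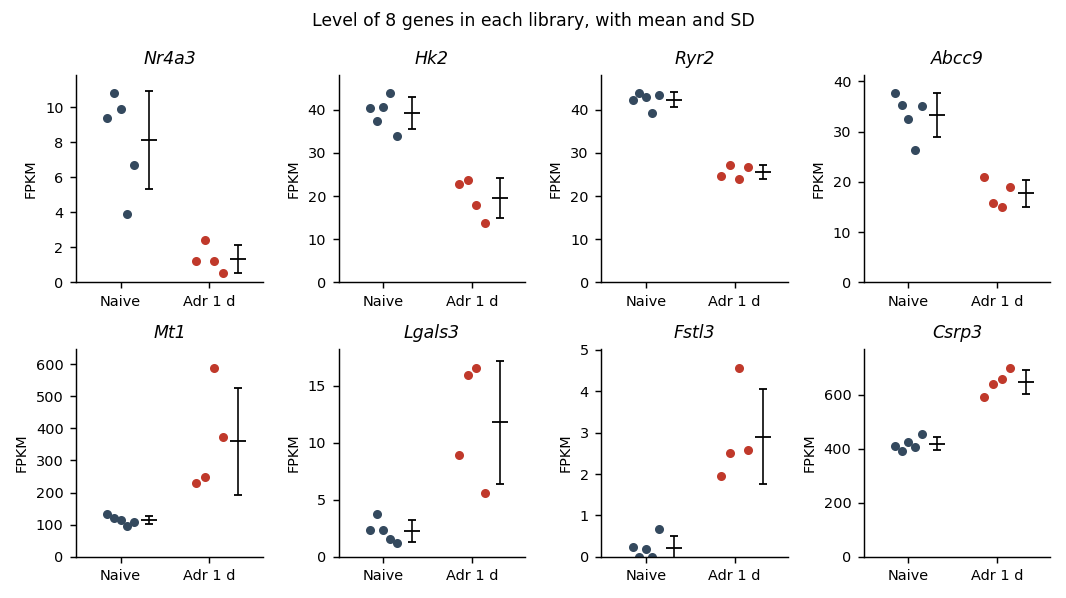
FPKM of 8 genes past the threshold in each library, with 5 Naïve points and 4 Adr points at 1 day and a bar for the mean and SD beside each group. Nr4a3, Hk2, Ryr2 and Abcc9 are lower and Mt1, Lgals3, Fstl3 and Csrp3 higher in all 4 Adr libraries than in any Naïve library, with the widest spread in Mt1 (229 to 589 FPKM).

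Hk2, the insulin responsive hexokinase that commits glucose to glycolysis, fell to 19.6 ± 4.63 FPKM from 39.2 ± 3.75. Its values were 22.8, 23.8, 17.9 and 13.8 in Adr and 40.5, 37.3, 40.7, 43.8 and 33.9 in Naïve (-0.99 ± 0.16, interval -1.34 to -0.64, adjusted p = 0.042, ratio 0.499). Of 25 glycolysis and glucose uptake genes, Hk2 was the only call. Without overlap 6 lay lower and 0 higher, against 3.38% and 2.85% of all tested genes. The median was -0.11, and -0.02 when scaled by fragments and -0.24 with quantile normalization. Slc2a4, the insulin responsive glucose transporter, was at 51.4, 55.2, 48.2 and 50.8 FPKM in Adr and 70.1 to 90.7 in Naïve (-0.59, interval -0.83 to -0.35), with an adjusted p of 0.059. Its basal counterpart Slc2a1 was at 4.09 ± 1.1 and 3.55 ± 0.775, and the other hexokinase Hk1 at 11 ± 0.84 and 12.2 ± 2.33. Among 16 citric acid cycle genes none was called, 6 lay lower and 0 higher without overlap (median -0.2). That median was -0.09 when scaled by fragments and -0.29 with quantile normalization, where all tested genes had medians of 0.1 and -0.01. Cs, citrate synthase, was at 132 ± 6.27 against 172 ± 6.56 FPKM (-0.38, adjusted p = 0.094). Fatty acid genes showed no common direction (25 tested, 0 called, median near 0). Cd36, the fatty acid transporter, was at 482 ± 163 and 412 ± 49 FPKM, and Lpl, lipoprotein lipase, at 454 ± 94.2 and 520 ± 68.2. Opa1, which fuses the inner mitochondrial membrane, fell from 25.6 ± 2.47 to 15.6 ± 0.81 (-0.68, adjusted p = 0.042).

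Acot13 and Acot9, thioesterases that release fatty acids from coenzyme A in mitochondria, rose. Acot13 was at 630, 471, 460 and 699 FPKM in Adr and at 323, 295, 329, 308 and 348 in Naïve (0.79 ± 0.14, interval 0.5 to 1.09, adjusted p = 0.049). Acot9 was at 20, 20.8, 18.4 and 17 against 6.24 to 11.9 (0.97 ± 0.16, adjusted p = 0.048). Each gene's groups were apart in all libraries, with ratios of 1.76 and 2.03.

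Nuclear and mitochondrial subunits of the respiratory chain had medians on opposite sides of 0, and no subunit was called. Of 36 nuclear complex I subunits, 29 had a difference above 0, 5 lay higher and 0 lower without overlap (median 0.24), and of 42 subunits of complexes II to V, 35, 7 and 1 (median 0.22). Over all tested genes 7255 of 13374 had a difference above 0, and 2.85% lay higher and 3.38% lower without overlap. Those 2 medians were 0.13 and 0.06 with quantile normalization and 0.35 and 0.32 when scaled by fragments. Sdha of complex II was the exception that lay lower, at 197 ± 18.8 against 251 ± 16.7 FPKM (-0.35, adjusted p = 0.15). Of the 13 protein coding mitochondrial genes, 5 had a difference above 0 and 2 lay lower without overlap (median -0.25, but 0.03 with quantile normalization). One of them was mt-Nd2, at 13335.5 to 17263.1 FPKM in Adr and 18551.4 to 28506.7 in Naïve (-0.46, interval -0.8 to -0.12, adjusted p = 0.22). The other, named after its values were seen, was mt-Nd5, at 6435.4 to 8586.4 against 11157.6 to 17697.4 (-0.88, adjusted p = 0.054). Genes of the mitochondrial genome made up 22.6, 23.4, 21.6 and 25.7% of the fragments in Adr and 25.2 to 30.9% in Naïve (exact two-sided permutation test, p = 0.048, and 0.036 to 0.089 with 1 library left out). Of 31 proteasome subunits 28 had a difference above 0, 8 lay higher and 0 lower without overlap and none was called (median 0.27), though 7 were called higher in a model of all 37 libraries, where 0.486% of all tested genes were. Without Adr 3 d replicate 3 in that model, 7 complex I subunits, 7 subunits of complexes II to V and 9 proteasome subunits were called higher, against 1.82% of all tested genes. Psma3 was at 25 ± 2.04 against 16.2 ± 3.68 FPKM (0.62, adjusted p = 0.14).

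The direction of a difference moved with gene length. The 16 higher genes had a median length of 1076 bases and the 14 lower genes of 7489, against 4036 over all tested genes, and 15 of the higher genes were shorter and 13 of the lower genes longer than that. The median difference was 0.18 for the 3346 shortest genes (up to 2311 bases) and -0.07 for the 3342 longest (at least 6441). The first held 13 of the 16 higher calls and the second 10 of the 14 lower calls. Without overlap, 163 of the shortest genes lay higher and 31 lower, and 48 and 254 of the longest. Per library, the Spearman correlation between gene length and the log2 ratio to the mean of the 9 libraries was -0.245, -0.0666, -0.147 and -0.246 in Adr and 0.0188 to 0.21 in Naïve (exact two-sided permutation test, p = 0.0079, the smallest that 4 against 5 can give). It separated all 9 libraries by group. The median length of the listed genes was 7716 bases for calcium handling, 5108 for ion channels, 1644 for complex I and 1794 for complexes II to V. With each library's trend on length removed, the medians of these lists were -0.24, -0.35, 0.12 and 0.12, the proteasome was at 0.18 and the citric acid cycle at -0.2. Only 1 gene, Gm38317, then passed the threshold, and it had reached the filter level only in Adr libraries. Of the named calls, Ryr2 (28790 bases), Abcc9 (8373) and Nr4a3 (5987) are long, and Mt1 (1246), Acot13 (744) and Lgals3 (1858) are short. The cause of this association was not tested.

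**Figure D4:**
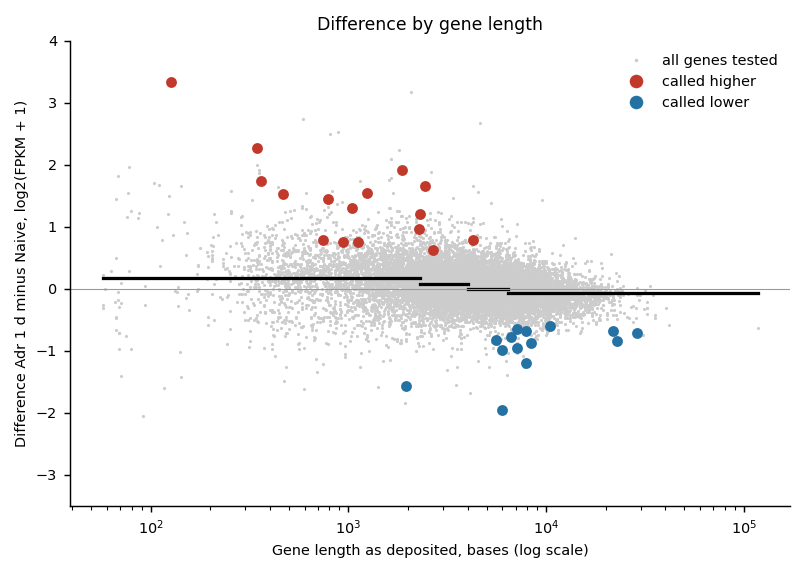
Difference between Adr at 1 day and Naïve on the log2(FPKM + 1) scale against deposited gene length (log scale) for the 13374 tested genes in grey, with called genes in red (higher) and blue (lower). Black lines are the medians of 4 length classes, from 0.18 in the shortest to -0.07 in the longest.

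**Figure D5:**
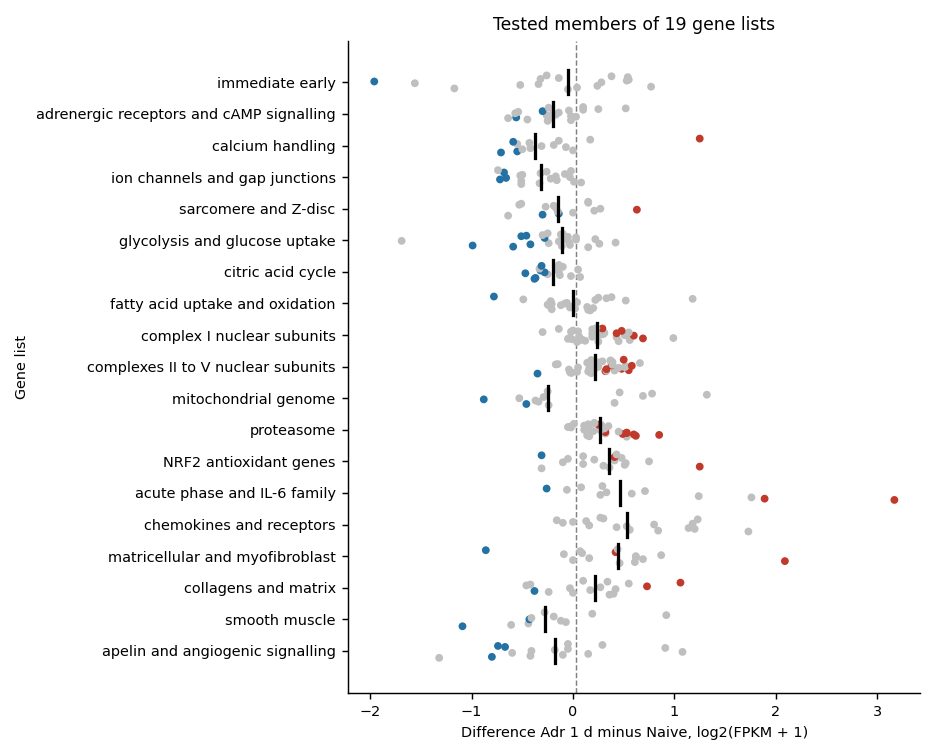
Differences of the tested members of 19 gene lists on the log2(FPKM + 1) scale, red or blue where the 4 Adr and 5 Naïve libraries did not overlap and grey otherwise. A black bar marks each list's median and the dashed line the median of all tested genes (0.03), with calcium handling at -0.37 and chemokines at 0.53.

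Mt1, a metallothionein that binds zinc and other metals and is induced by stress hormones and cytokines, rose more than 3-fold. It was at 229, 247, 589 and 374 FPKM in Adr and at 132, 120, 116, 95.9 and 108 in Naïve. The Adr libraries spread widely yet all lay above Naïve, with a ratio of means of 3.14 (1.54 ± 0.24, interval 1.01 to 2.08, adjusted p = 0.042, and 1.27 to 1.73 with 1 library left out). It was the only call among 8 metallothionein and zinc transporter genes tested. Mt3 was at 1.2 ± 1.07 and 0.569 ± 0.551, and the zinc exporter Slc30a1 at 3.94 ± 0.393 and 4.45 ± 1.39. Mt2 was listed at 0 in 8 of the 9 libraries. Heart tissue also expresses Tagln, listed at 0.459 FPKM at most in the 9 libraries, and Gapdh, listed at 0.527 to 1.15 in Adr and 0.64 to 30.9 in Naïve, so nothing is read from the low values of Mt2. Those 3 were chosen after their values were seen.

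Lgals3, galectin 3, a lectin of macrophages and of fibrosis, rose to 8.93, 16, 16.6 and 5.64 FPKM from 2.34, 3.73, 2.38, 1.54 and 1.24 (1.92 ± 0.31, interval 1.23 to 2.6, adjusted p = 0.042, ratio 5.25). Fstl3, a secreted inhibitor of activin and myostatin, rose to 1.95, 2.51, 4.57 and 2.57 FPKM from 0 to 0.669 (1.66 ± 0.23, interval 1.16 to 2.17, adjusted p = 0.042). It was listed at 0 in 2 of the Naïve libraries. Serpina3n, an acute phase protease inhibitor, had a difference of 3.17 (interval 1.89 to 4.44) and narrowly missed the threshold (adjusted p = 0.058). It was at 29.6, 46.6, 114 and 26.8 FPKM in Adr and at 3.03, 1.49, 4.39, 18.9 and 2.45 in Naïve, without overlap. Of 12 acute phase and IL-6 family genes tested out of 20 listed, none was called and 10 had a difference above 0 (median 0.46, 2 higher and 1 lower without overlap). Among all tested genes 7255 of 13374 had a difference above 0, and 2.85% lay higher and 3.38% lower without overlap. Lcn2, lipocalin 2, was at 3.97, 3.45, 28 and 9.52 against 0.227 to 3.42 FPKM (adjusted p = 0.17). Saa1, Saa2 and Orm1 were at 0 in all 9 libraries.

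Leukocyte and chemokine lists held no call. For lymphocytes this says little, as only 3 of 10 B cell genes and 2 of 13 T and NK cell genes passed the filter. Of 17 chemokine and receptor genes 15 had a difference above 0 (median 0.53, but 0.25 with the atrial marker level as a covariate and 0.34 without Adr replicate 3), yet none separated the groups. The difference was above 0 in 7255 of all 13374 tested genes. Ccl2, the monocyte chemokine, was at 17.5, 19.7, 8.39 and 2.45 FPKM in Adr and 1.29 to 4.08 in Naïve (1.73, interval 0.69 to 2.77, adjusted p = 0.15), so replicate 4 lay within the Naïve range. Only 5 of 15 neutrophil genes and 5 of 11 inflammatory monocyte genes passed the filter. S100a8 and S100a9, abundant neutrophil proteins, were at 0.0894 to 4.7 and 0 to 3.52 FPKM in Adr and at 0 to 1.54 and 0 to 8.2 in Naïve. All 5 tested neutrophil genes had a difference above 0 (median 0.34, and 1.83 by voom), and Clec4d, a lectin receptor of myeloid cells named after its values were seen, lay higher without overlap, at 1.19 to 3.84 against 0 to 0.809 FPKM (1.3, adjusted p = 0.098). Ccr2 was at 2.49, 3.33, 1.11 and 0.35 against 0.503 to 1.32. The resident macrophage gene Lyve1 was at 23.5 ± 13.8 and 17.9 ± 6.07 (15 genes, 0 called, median 0.28, but 0.02 without Adr replicate 3 and 0 with the atrial covariate), and the class II genes H2-Aa and H2-Ab1 at 23.2 ± 10.5 and 28.7 ± 13.3 against 31.7 ± 8.93 and 33.4 ± 7.22 FPKM (9 genes, 0 called, median -0.2). Interferon response genes had a median of -0.07 (17 genes, 0 called). Icam1, an endothelial adhesion molecule, was at 5.68 ± 1.72 and 3.71 ± 1.49 (adjusted p = 0.42).

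Matrix genes were likewise below the threshold. Mmp3, stromelysin, was at 14.1, 19.1, 29.2 and 9.56 FPKM in Adr and 0.776 to 5.32 in Naïve, without overlap (2.24, interval 1.33 to 3.15, adjusted p = 0.058). Mmp2 was at 17.5 ± 1.93 and 16 ± 2.8. Of 16 collagen and matrix genes 2 lay higher and 1 lower without overlap (median 0.22, but 0.08 without Adr replicate 2). Col1a1 was at 35.9, 29.8, 19.2 and 13.4 FPKM against 15.4 to 20.7, and Col3a1 at 49.4 ± 29.3 against 42.9 ± 6.44, with replicates 1 and 2 high in both. Of 15 matricellular genes 12 had a difference above 0 (median 0.44, and 0.22 with the atrial covariate), as did 7255 of all 13374 tested. Spp1, osteopontin, was at 7.76, 21.5, 2.18 and 1.6 FPKM against 0 to 1.59 (adjusted p = 0.14). The fibroblast gene Dcn was at 245 ± 74.9 against 159 ± 25.9 (0.58, interval 0.14 to 1.03, adjusted p = 0.22), and 8 of 10 fibroblast genes had a difference above 0 (median 0.36).

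Vessel genes included several lower levels, none past the threshold apart from Abcc9, a gene of heart muscle as well as pericytes. Myh11, smooth muscle myosin, was at 1.03, 3.33, 1.77 and 2.66 FPKM in Adr and 4.03 to 8.44 in Naïve (-1.09, interval -1.63 to -0.55, adjusted p = 0.094). Acta2, smooth muscle actin, overlapped, at 41.6 ± 19.9 and 65.3 ± 34, and the median of 11 smooth muscle genes was -0.28. Apln, a peptide that dilates vessels, was at 4.47, 3.08, 1.44 and 0.69 against 4.04 to 9.5 FPKM (-1.32, interval -2.05 to -0.59, adjusted p = 0.12), and its receptor Aplnr at 3.31 to 8.4 against 8.85 to 15.7 (-0.8, adjusted p = 0.18). Kdr, the main VEGF receptor, was at 22.6, 12.4, 9.77 and 11.5 against 21.6 to 26.3 FPKM (-0.81, adjusted p = 0.12), with replicate 1 within the Naïve range. Pecam1, by contrast, was at 54.3 ± 9.4 and 45.1 ± 6.43, and 10 endothelial identity genes had a median of 0.05. Of 15 apelin and angiogenic genes 4 had a difference above 0 and 3 lay lower without overlap (median -0.18). Those above 0 included, named after their values were seen, Angptl4 (1.08) and Pgf (0.91). Of 10 endothelial activation genes 8 had a difference above 0 (median 0.34). Over all tested genes these shares were 7255 of 13374 above 0 and 3.38% lower without overlap.

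Among stress responses, Hmox1, haem oxygenase 1, was at 10.3, 40.6, 20.2 and 11.2 FPKM in Adr and 4.82 to 8.66 in Naïve, without overlap (1.25, interval 0.5 to 2, adjusted p = 0.14). Of 17 NRF2 antioxidant genes 13 had a difference above 0, 2 lay higher and 1 lower without overlap and none was called (median 0.36, and 0.16 with the atrial covariate). Among all tested genes these were 7255 of 13374 above 0, 2.85% higher and 3.38% lower without overlap. Of 15 glucocorticoid response genes none was called, 9 had a difference above 0, and 0 lay higher and 1 lower without overlap (median 0.11). That median was 0 without Adr replicate 4 and 0.32 without Adr replicate 2. Tsc22d3, also of this list, was at 42.8 ± 19.3 FPKM in Adr and 37.5 ± 6.53 in Naïve. Fkbp5 and Zbtb16, which glucocorticoids induce, split the Adr group. Fkbp5 was at 1.07 FPKM in replicate 1 and 4.3, 12.4 and 11.4 in the others, against 0.824 to 2.18 in Naïve, and Zbtb16 at 1.79, 12.5, 15 and 14.6 against 1.93 to 4.29 (adjusted p = 0.21 for each). Replicate 1 thus lay within or below the Naïve range in both. No gene was called in the lists for the clock (median -0.04), heat shock proteins (-0.02), endoplasmic reticulum stress (0.13, but -0.06 without Adr replicate 2), ATF4 (0.13, but 0.02 without Adr replicate 3), p53 targets (0.15), atrophy and autophagy (0.26), proliferation (-0.01) or iron handling (0.07). The medians for the clock, heat shock proteins, proliferation, interferon response and wall stress genes changed sign with at least 1 of the scalings. Of 6 red cell genes none was called and 0 had a difference above 0, against 7255 of all 13374 tested (median -0.37). That median ran from -0.54 to -0.21 with 1 library left out. None separated the groups, and the list summed to 1641.7 to 2721.2 FPKM in Adr and 1699.3 to 3954.3 in Naïve. Hba-a1, whose near-identical copies make counts uncertain, was at 635 ± 137 and 860 ± 269 FPKM. Mesothelial markers summed to 23 to 40.8 FPKM in Adr and 11.4 to 86.7 in Naïve (9 genes, median -0.48).

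Several of the largest differences came from short or non-coding genes at low levels. Gm38317, a processed pseudogene of 343 bases, was at 5.55, 2.64, 3.62 and 3.96 FPKM in Adr and at 0 in all Naïve libraries, 97 fragments against 0. It had the lowest adjusted p, 0.0011, and kept its call with each of the 9 libraries left out. It is among the 22 genes that reached the filter level only in Adr libraries, so its separation was fixed by the filter. Gm49326, a short unprocessed pseudogene, was at 9.18, 26.1, 11.8 and 12.6 FPKM in Adr and at 0 in 4 Naïve libraries and 5.9 in Naïve replicate 5. The non-coding genes Gm45820 and Gm14286 were at 1.29 to 5 and 1.11 to 2.41 FPKM in Adr, 63 and 65 fragments in all, and at 0 in all Naïve libraries. AV356131 was at 1.04 to 2.62 against at most 0.16, and ENSMUSG00000120381 at 7.15 to 14.3 against 2.4 to 4.67. Prrt1, a protein of AMPA receptor complexes, was at 1.19 to 1.78 FPKM against 0 to 0.355. Gm45820, Gm14286, AV356131 and Prrt1 also reached the filter level only in Adr libraries, so their separation was fixed in the same way. Gm32113, non-coding, fell to 0.314 to 2.19 from 3.44 to 7.02 FPKM. Pseudogenes share sequence with their parent genes and the strand counted is not stated, so these values are uncertain.

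Further protein coding genes completed the lower calls. Lrtm1, a leucine rich repeat membrane protein of muscle, fell to 29.7, 30.9, 14.3 and 24 FPKM from 52.3 to 59.6 (-1.2 ± 0.19, adjusted p = 0.042). Cyfip2, of the actin regulating WAVE complex, fell to 13.2 ± 2.17 from 26.5 ± 3.16 FPKM (-0.96, adjusted p = 0.042). Antxr2, an anthrax toxin receptor that binds matrix, fell to 12.1 ± 1.71 from 21.4 ± 2.6, Clasp1, which stabilises microtubules, to 9.38 ± 1.31 from 15.7 ± 0.757, and 3425401B19Rik to 9.08 ± 0.988 from 16.9 ± 2. The remaining calls had smaller differences and, chosen after their values were seen, are Cystm1, Trappc1 and Supt4a, higher by 0.75 to 0.79, and Glg1 and Zfp106, at -0.65 and -0.61.

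Whether these levels were particular to hearts without arrest was read against Arrest hearts at 1 day in 1 model of all 37 libraries. No gene of 16579 (0%) differed between Arrest and Adr at 1 day (limma, adjusted p of at most 0.05), while 1093 had an unadjusted p up to 0.05, and 0 to 4 were called with 1 library left out. Mt1 was at 959 ± 527 FPKM in Arrest and 360 ± 166 in Adr, with an interval of the difference of 0.2 to 2.43 and an adjusted p of 0.72. Serpina3n was at 165 ± 52 against 54.2 ± 40.6 FPKM (interval -0.12 to 3.67). Of the lower genes, Ryr2 was at 27.1 ± 2.47 in Arrest (interval of the difference from Adr -0.36 to 0.51), Hk2 at 18.3 ± 4.03 (-0.62 to 0.44) and Nr4a3 at 2.25 ± 1.95 (-0.81 to 1.53). Csrp3 was at 765 ± 73.2 and Lgals3 at 8.03 ± 2.51 FPKM in Arrest. The gene ENSMUSG00000120381 went the other way, at 3.55 ± 0.994 FPKM in Arrest, near Naïve (3.35 ± 0.915), against 9.84 ± 3.13 in Adr (interval of the difference -1.89 to -0.59, adjusted p = 0.38).

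A selection of the called genes is given for Adr hearts at 0.5 and 7 days, which share the Naïve libraries as their reference. At 0.5 days Ryr2 was at 30.2 ± 5 FPKM, Hk2 at 24.7 ± 7.9, Nr4a3 at 5.09 ± 4.2, Csrp3 at 644 ± 63.8, Mt1 at 483 ± 351, Acot13 at 508 ± 38.2 and Lgals3 at 8.33 ± 2.2. At 7 days Ryr2 was at 32.9 ± 7.26 FPKM, Hk2 at 35.7 ± 4.22, Nr4a3 at 10.2 ± 4.21, Csrp3 at 423 ± 27.7, Mt1 at 116 ± 30, Acot13 at 320 ± 30.6 and Lgals3 at 3.19 ± 1.34. At 7 days all of the genes in this selection but Ryr2 lay within 1 SD of the Naïve mean. That does not hold for the 30 called genes as a whole. Outside it lay, among others, Glg1 at 17.7 ± 1.08 FPKM (20.7 ± 0.683 in Naïve) and Lrtm1 at 44.9 ± 13 (55.7 ± 2.86). Supt4a, at 27.6 ± 4.46 (23.1 ± 1.31), and Gm38317, at 3.57 ± 2.45 (0 in Naïve), lay outside as well. Between 7 days and 1 day, 7 of 16579 genes (0.0422%) differed, all lower at 7 days, and 1604 had an unadjusted p up to 0.05. The 7 are named after their values were seen. Dbi, the acyl-CoA binding protein, was at 94.2 ± 5.43 FPKM at 1 day, 52.7 ± 9.82 at 7 days and 63.7 ± 13.2 in Naïve (-0.84 ± 0.15, adjusted p = 0.01). The others were the cyclin Ccnl2 (-0.86), the mitochondrial ribosome genes Mrpl33 (-0.64) and Mrps17 (-0.7), the general transcription factor gene Gtf2a2 (-0.89), the zinc finger gene Zfp52 (-1.21) and the non-coding Gm49130 (-2.07). A fit of only those 2 groups called none. None of the 30 genes above passed this test, the nearest being Wnk1 (0.73, interval 0.41 to 1.05, adjusted p = 0.07) and Glg1 (0.44, adjusted p = 0.074).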

How the data were processed

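The authors sequenced left ventricular RNA, aligned it with HISAT2 v2.0.5 and tested it with DESeq2. They deposited FPKM values with gene lengths and symbols for 37 libraries (0 per-sample columns were left unused). Genome build, annotation, counting tool and strand are not given in the sources used here, so no gene coordinates are printed from the table, and copies, antisense and overlapping genes are uncertain. FPKM times gene length was a whole multiple of 1 fragment in 100% of values (tolerance 0.02), which gave the fragments per library. No 2 libraries were copies.

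Values were converted to log2(FPKM + 1) and fitted for the 9 libraries using limma (3.58.1, R 4.3.3; trended eBayes without covariates). Benjamini-Hochberg adjustment at 0.05 ran over all genes tested. Adr at 1 day was compared with Arrest at 1 day and Adr at 7 days in a model of all 37 libraries. Single measures were compared by exact permutation tests. On simulated data of this comparison (13639 genes, 200 changed), 62.2% of changes of 1 and 100% of changes of 2 on the log2 scale were called, 7.6% of calls were false, and 4 genes were called with no change. These rates describe the simulated data, and whether they hold for the calls in the measured libraries was not tested. Symbols shared by gene IDs (77) were kept apart.

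Genes are named by rule. The first part takes called genes whose mean reached 1 FPKM in either group and whose groups did not overlap, up to 12 per direction by size. The second takes up to 4 called and the first 3 tested members of each list, and the third Sln and Myl7. The members, lists and rules were chosen with earlier results of these data known. Lists are described by counts and medians with no set test. Promoters are from RefSeq (GRCm38.p6). Protein sequences were not used. Plots were made in Python 3.11.15 using matplotlib 3.10.9.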

Additional observations from a re-analysis of the deposited data

Results flagged for a closer look

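Within-group values were tested for a single outlying library by Dixon's criterion in 74 sets, and 8 were flagged, where chance flags about 1 in 20 groups. Among genes, these were Gm49326 in Naïve replicate 5 (5.9 FPKM, 0 in the other Naïve libraries), AV356131 in Naïve replicate 2 (0.16, 0 in the others), Zfp106 in Naïve replicate 2 (63.2, others 70.6 to 73.6), Opa1 in Naïve replicate 2 (21.3, others 26.1 to 27.5) and Sln in Adr replicate 2 (121, others 0 to 20.4). Among library measures, they were the fragments of Adr replicate 4 (25.9 M, others 13.6 to 14.6), its genes above 0 (21356, others 16623 to 17373) and the genes above 0 of Naïve replicate 4 (13475, others 16297 to 16925). All 30 called genes separated the groups without overlap, so the flagged genes that were called did too, and this does not test the weight of the outlying library.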

How the results depend on the processing

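The count of calls depended on nearly every choice. Against 30 in Adr at 1 day compared with Naïve, 128 genes (17 of the 30 among them) were called in a model of all 37 libraries, 496 (29 of them) when Adr 3 d replicate 3, with 9.36% of fragments on the mitochondrial genome, left that model, 139 with voom on recovered fragments, 104 with array quality weights, 62 with quantile normalization, 57 when scaled by fragments and 50 with equal sums of FPKM (median of all genes 0.1 and 0.11 in the last 2, 0.03 as deposited). Only 3 were called with a pseudocount of 0.1, 3 with no filter, 4 with sex as a covariate, 1 with the length trend removed and 1 with the atrial marker level as a covariate. With the description number as a covariate in the model of all 37 libraries limma called 0, against 128 without it, and 1281 had an unadjusted p up to 0.05. A minimum mean of 1 FPKM gave 34 and robust eBayes 31. Leaving out 1 library gave 1 to 11 calls (10, 2, 1 and 11 without Adr replicates 1 to 4, and 1, 3, 1, 6 and 2 without Naïve replicates 1 to 5), with fewer samples in each such fit. Gm38317, which reached the filter level only in Adr libraries, kept its call in all 9 of these and in 13 of 16 other settings. Ryr2 kept its call in 2 and 10, Mt1 in 1 and 7 and Nr4a3 in 1 and 8. None of the 30 reversed, an outcome fixed in advance where 1 library was left out, because their groups did not overlap. The replicate block gave 1 call, and 0 in Adr at 7 days against 1 day. Same-numbered libraries did not deviate together over the tested genes (correlations 0.039, -0.054, 0.014 and -0.037), and the main fit did not pair them. This measure can miss a shared litter or day of handling, so pairing was not excluded. For Adr at 7 days against 1 day, 0 genes were called in a fit of those groups alone (1955 with an unadjusted p up to 0.05), 63 without Adr 3 d replicate 3, 17 with a mean of at least 1 FPKM and 3 to 16 with 1 library left out, against 7. For Arrest against Adr at 1 day leaving out 1 library gave 0 to 4. The cause of these shifts was not tested. Depth limits genes under about 1 FPKM, where 1 fragment of a gene of 1 kb is worth 0.0388 FPKM in Adr replicate 4 and 0.0761 in Naïve replicate 3.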

Other observations

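Single Adr libraries stood apart in different genes, chosen after their values were seen. In replicate 1, Egr1 was at 52.7 FPKM (2.13 to 2.95 in the other Adr libraries and 2.63 to 11.3 in Naïve) and Nr4a1 at 48.5 (2.83 to 5.76 and 9.35 to 41.1). Both are induced within minutes to hours by growth and stress signals, as is Nr4a3, which was not high there (1.23 FPKM). Replicate 2, the highest in atrial markers, also had the highest levels of the endoplasmic reticulum chaperones Hspa5, at 192 FPKM (58.8 to 102 in the other Adr libraries and 90.3 to 127 in Naïve) and Calr, at 153 (52.8 to 109 and 72.5 to 98.1). In replicate 4, the deepest library, Pdk4, which blocks pyruvate oxidation, was at 284 FPKM, against 42.6 to 96.5 in the other Adr libraries and 79.9 to 174 in Naïve.

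Tfrc, the transferrin receptor for iron uptake, was at 20.9, 15.5, 4.23 and 1.57 FPKM in the Adr libraries and at 11 to 21 in Naïve, so replicates 3 and 4 lay far below and replicates 1 and 2 within the Naïve range (-1.02, interval -2.19 to 0.15, adjusted p = 0.42 by limma). Retnla, a resistin-like protein of alternatively activated macrophages that was chosen after its values were seen, was at 3.63, 13.7, 17 and 3.63 FPKM in Adr and 17 to 39.1 in Naïve, without overlap at full precision (-1.62, interval -2.55 to -0.7, adjusted p = 0.13 by limma).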
